A study of Homo sapiens with 17 samples.

Results

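The genes followed here are 40 interferon-stimulated genes, taken by symbol from the count tables of 17 bulk RNA-seq libraries of IMR-90 cells. They were 40 of 41040 named genes. The list is one of gene names with no threshold on a value, and it was drawn up with earlier results of these data known. IMR-90 is a line of normal diploid fibroblasts established from human fetal lung, and all the libraries are of this line. The cells of week 0 (day 0, n = 5 libraries) were untreated. The cells collected at week 1 (day 7, n = 6) and at week 4 (day 28, n = 6) had been exposed to 20 µM etoposide for 48 h and then kept without it. Etoposide is a topoisomerase II poison that breaks DNA and is used to drive fibroblasts into senescence. Untreated cells were collected only at week 0, so etoposide and time in culture cannot be told apart. The labels do not say that the libraries of a group came from separate cultures, so p-values measure the spread between libraries, which may be technical.

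Interferons are secreted proteins that warn cells of viral infection. Type I interferons bind the receptor IFNAR1/IFNAR2, whose kinases JAK1 and TYK2 phosphorylate STAT factors, STAT2 among them. With IRF9 these form the factor ISGF3, which binds the interferon-stimulated response element (ISRE) in the promoters of antiviral genes, while interferon gamma acts mainly through another element, GAS. Cells make interferon when sensors such as IFIH1 detect viral RNA or when cGAS detects DNA in the cytoplasm, and senescent fibroblasts are known to carry DNA fragments there.

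The ISRE letters (GAAA, any 2 bases and GAAA again) were searched on both strands of the 250 bases upstream of each gene start in the RefSeq promoters of GRCh38.p14. Of the 40 genes, 32 had a promoter in that table, and USP18, MX2, IFIT2, OAS2, TRIM22, IFITM2, IRF7 and OASL did not. The ISRE letters occurred in 23 of the 32 (71.9%), against 3.71% of the 27303 genes in the table. Promoters of 5 genes with different courses are shown, all 5′ to 3′ on the strand of the gene, with matches to the ISRE letters in capitals on whichever strand they lie. OAS3 was lower than in untreated cells at both weeks, IFIT1 was called lower at week 1, ISG15 was higher and later lower, CXCL10 had the largest fitted rise of the tested members at both weeks, and IFITM1 was lower and later higher. They lie at chr12:112938224-112938473 (OAS3, plus strand), chr10:89392373-89392622 (IFIT1, plus), chr1:1013247-1013496 (ISG15, plus), chr4:76023498-76023747 (CXCL10, minus) and chr11:313790-314039 (IFITM1, plus).
OAS3: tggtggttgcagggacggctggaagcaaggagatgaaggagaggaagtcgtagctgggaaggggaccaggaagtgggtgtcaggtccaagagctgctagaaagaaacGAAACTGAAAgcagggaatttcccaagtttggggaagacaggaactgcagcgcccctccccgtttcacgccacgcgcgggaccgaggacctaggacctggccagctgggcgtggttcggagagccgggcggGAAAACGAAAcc
IFIT1: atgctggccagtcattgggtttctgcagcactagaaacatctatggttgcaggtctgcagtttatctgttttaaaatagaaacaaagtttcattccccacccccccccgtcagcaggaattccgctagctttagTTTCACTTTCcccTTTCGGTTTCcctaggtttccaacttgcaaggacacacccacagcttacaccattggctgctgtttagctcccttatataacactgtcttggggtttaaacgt
ISG15: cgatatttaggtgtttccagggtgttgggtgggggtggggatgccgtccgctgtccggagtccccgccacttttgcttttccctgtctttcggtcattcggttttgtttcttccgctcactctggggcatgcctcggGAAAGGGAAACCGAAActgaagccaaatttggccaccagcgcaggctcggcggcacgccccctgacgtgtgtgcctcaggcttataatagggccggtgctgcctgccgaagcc
CXCL10: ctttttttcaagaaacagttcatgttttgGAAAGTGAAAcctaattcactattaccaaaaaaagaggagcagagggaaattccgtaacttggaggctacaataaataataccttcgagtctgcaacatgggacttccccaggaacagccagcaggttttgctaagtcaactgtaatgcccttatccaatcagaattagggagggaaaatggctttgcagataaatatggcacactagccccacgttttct
IFITM1: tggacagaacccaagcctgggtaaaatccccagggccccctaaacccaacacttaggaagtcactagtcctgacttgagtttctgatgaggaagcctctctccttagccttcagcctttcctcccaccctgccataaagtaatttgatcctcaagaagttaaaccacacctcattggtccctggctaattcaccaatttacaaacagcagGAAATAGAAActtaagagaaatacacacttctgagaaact

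Genes called higher and genes called lower both carried the ISRE letters. They were found in 7 of the 13 promoters of genes called higher at week 1, in 9 of the 10 of genes called lower and in 5 of the 7 of genes that did not pass the test. At week 4 the counts were 10 of 17 higher, 4 of 4 lower and 7 of 9 that did not pass. The GAS letters TTCNNNGAA, where N is any base, occurred in 12 of the 32 promoters (37.5%, against 8.09% of all genes in the table) and overlapped an ISRE match in EPSTI1, IFI27, BST2 and MX1. A kappaB motif, the site of NF-kB, occurred in 9 of the 32 (28.1%, against 11.8%). These include a pair in CXCL10 and a pair in OAS3 whose matches overlap each other. By call at week 1, kappaB was found in 6 of 13 higher, 1 of 10 lower and 2 of 7 that did not pass. The week 4 counts were 8 of 17, 1 of 4 and 0 of 9. In the same order, GAS stood at 4 of 13, 4 of 10 and 3 of 7, and at 8 of 17, 0 of 4 and 3 of 9. Whether these shares differ was not tested. Genes of a family share sequence, so their promoters are not independent, and a match of letters says nothing about binding.

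Libraries held 77.2 to 102.8 M (1000000) counts in named genes. In week 0 replicates 1 and 4, ribosomal protein genes took 5.95% and 5.18% of the counts, against 3.17% to 3.93% in the other libraries, so the counts of called members are given below also without these libraries. Deposited files came in a larger class, for 2 libraries of week 1 (replicates 1 and 2) and 2 of week 0 (replicates 5 and 6), and a smaller class for the other 13. Summed over 12 fibroblast markers (collagens, DCN, LUM, VIM and others), the level was 35460 to 42325 CPM at week 0, 52820 to 56043 CPM at week 1 and 70367 to 73752 CPM at week 4, none of the markers being at 0 in all libraries. CPM is the number of a gene's counts per 1000000 counts of its library, with library totals scaled by edgeR's TMM factors. The 9 epithelial markers summed to 58.7 to 66.3, 243 to 282 and 201 to 227 CPM, and the 7 endothelial markers to 75.9 to 93.5, 59.9 to 64.4 and 54.7 to 81.7 CPM in that order of weeks. The 9 leukocyte markers stayed at or under 1.38 CPM together. The 8 markers of plasmacytoid dendritic cells, a main producer of interferon, summed to 67.5 to 92.1, 30.5 to 39.7 and 61.1 to 72.3 CPM. Of these markers, LILRA4 and TLR9 were at 0 in every library, while CLEC4C, IL3RA, TCF4, IRF8, SPIB and TLR7 were not. The part of any of these sums in the changes of the interferon-stimulated genes was not tested.

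The interferon-stimulated genes were called in both directions at week 1, as all tested genes were, and leaned upward at week 4. The 4 members IRF7, OASL, IFI27 and RSAD2 had too few counts to be tested, and 36 were tested with edgeR's quasi-likelihood test in a fit of all 16891 testable genes, with a call at a Benjamini-Hochberg adjusted p under 0.05. At week 1 against week 0, 16 were called higher and 12 lower, while 32.9% of all tested genes were called higher and 34% lower. At week 4 against week 0, 22 were called higher and 5 lower, against 33.9% and 33.7% of all tested genes. At week 4 against week 1, 18 were called higher and 3 lower, against 21.8% and 18.6%. In any direction, 66.9%, 67.6% and 40.5% of all tested genes were called, so a call by itself sets no gene apart here. The first 2 comparisons share the week 0 libraries.

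The median log2 fold change of the tested members was 0.26, 0.57 and 0.41 in those comparisons, beside -0.02, 0.00 and 0.01 over all tested genes. Calls were made against no change. Member calls with a fitted change above 2-fold numbered 8 upward and 2 downward at week 1, against 11.6% and 9.08% of all tested genes. At week 4 these were 12 and 1, against 12.1% and 7.55%, and between week 4 and week 1 they were 4 and 0, against 2.99% and 1.14%. The libraries of the compared groups did not overlap for 20, 23 and 15 members, against 48.7%, 49% and 30.2% of all tested genes. Without week 0 replicates 1 and 4, the calls were 16 higher and 10 lower, 23 and 5, and 20 and 4. In bulk samples, fewer cells that make an RNA and less RNA per cell cannot be told apart.

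**Figure D1:**
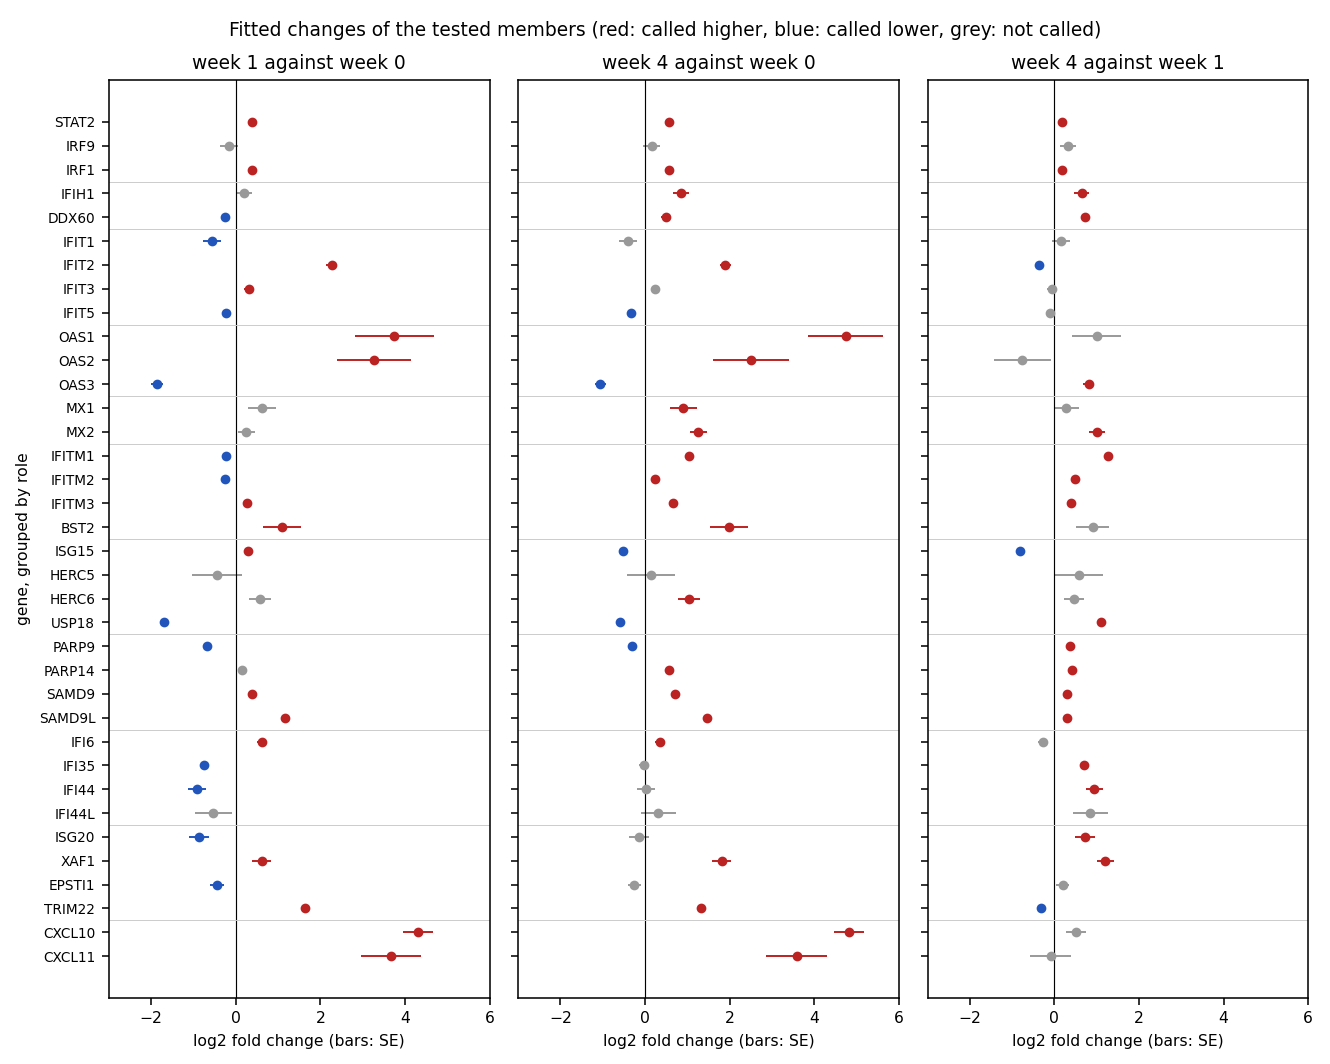
Fitted log2 fold changes (points) with their standard errors (bars) of the 36 tested members in the 3 comparisons, with genes grouped by role down the vertical axis. Red points were called higher, blue lower and grey not called at an adjusted p under 0.05, and blue points number 12 at week 1 against week 0, 5 at week 4 against week 0 and 3 at week 4 against week 1.

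STAT2 and IRF1, of the transcription factors, rose at both weeks, by less than 2-fold. STAT2, a partner of IRF9 in ISGF3, had 78.0, 73.8, 67.1, 85.5 and 90.1 CPM in the week 0 libraries (replicates 1, 3, 4, 5 and 6, the order kept below), 101 to 108 (median 103) CPM at week 1 and 112 to 120 (median 118) CPM at week 4. The 3 groups did not overlap. STAT2 was 1.31-fold higher at week 1 than at week 0 (log2 0.39 ± 0.06 SE, edgeR adjusted p = 2.19e-06) and 1.49-fold higher at week 4 (0.58 ± 0.06, adjusted p = 8.10e-09), and also higher at week 4 than at week 1 (0.18 ± 0.05, adjusted p = 0.00982).

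IRF1, a factor that interferon gamma induces strongly, had 13.1, 12.7, 14.0, 12.8 and 13.6 CPM at week 0, 14.7 to 19.5 (median 16.96) CPM at week 1 and 16.1 to 22.0 (median 19.8) CPM at week 4. Every library of weeks 1 and 4 lay above those of week 0, while weeks 1 and 4 overlapped. The log2 changes against week 0 were 0.37 ± 0.08 (edgeR adjusted p = 0.000164) and 0.56 ± 0.08 (adjusted p = 9.58e-07). The change between week 4 and week 1 (0.19 ± 0.07, edgeR adjusted p = 0.0407) was no longer called in 13 of 29 alternative fits (other scalings, filters, tools and terms, or libraries left out). These include leaving out any 1 of 9 libraries (week 1 replicates 1, 2, 5 and 6 and week 4 replicates 1 to 5), with adjusted p of 0.061 to 0.11. In GENCODE v29, 22.0% of its exonic bases are also in genes on the opposite strand, whose reads may be counted with it because the strand setting is not given in the sources used here.

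IRF9, the DNA-binding subunit of ISGF3, had 2.15, 1.27, 0.821, 1.49 and 1.86 CPM at week 0, 0.977 to 1.77 (median 1.37) CPM at week 1 and 1.39 to 2.24 (median 1.60) CPM at week 4. All 3 groups overlapped and no comparison passed the test (edgeR adjusted p = 0.496, 0.497 and 0.199). Another annotated gene on its strand shares 48.4% of its exonic bases. IRF7, which amplifies the production of interferon alpha, had 1 to 12 counts a library, with 0.0419, 0.0320, 0.0463, 0.105 and 0.0612 CPM at week 0, 0.0110 to 0.0669 (median 0.0353) CPM at week 1 and 0.0527 to 0.121 (median 0.0646) CPM at week 4. It was not tested.

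The RNA sensors IFIH1 and DDX60 were higher at week 4 than at either earlier week. IFIH1 (MDA5), a cytoplasmic sensor of long double-stranded RNA, had 0.839, 1.77, 1.68, 1.47 and 2.38 CPM at week 0, 1.39 to 2.70 (median 1.80) CPM at week 1 and 2.75 to 2.99 (median 2.96) CPM at week 4. All 6 week 4 libraries lay above the others, while weeks 0 and 1 overlapped. The change was 1.80-fold at week 4 against week 0 (log2 0.85 ± 0.18, edgeR adjusted p = 0.000342) and 1.56-fold against week 1 (adjusted p = 0.00496), while week 1 against week 0 did not pass (0.20 ± 0.19, adjusted p = 0.344).

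DDX60, a DExD/H-box helicase of the antiviral response, had 6.76, 7.70, 7.52, 7.38 and 8.44 CPM at week 0, 5.33 to 8.07 (median 5.92) CPM at week 1 and 8.95 to 11.6 (median 11.1) CPM at week 4. Week 4 lay above both other groups without overlap, with log2 changes of 0.48 ± 0.10 against week 0 (edgeR adjusted p = 0.000240) and 0.73 ± 0.10 against week 1 (adjusted p = 3.30e-06). At week 1 it was called lower than at week 0 by a log2 change of -0.24 ± 0.10 (adjusted p = 0.0406), but the libraries overlapped. That call was lost in 14 of 29 alternative fits. It was lost without any 1 of week 0 replicates 3, 4 and 6 or week 1 replicates 1, 2, 4 and 6 (adjusted p = 0.056 to 0.10), under RLE and upper-quartile scaling, which edgeR offers in place of TMM, in DESeq2, against a minimum fold change, with the replicate block, with only the groups compared and in the smaller files alone.

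The IFIT genes, some of whose products bind viral RNA by its end and block its translation, moved in different directions. IFIT2 had 1.25, 1.34, 1.96, 1.43 and 1.62 CPM at week 0, 6.23 to 8.34 (median 7.11) CPM at week 1 and 4.96 to 6.48 (median 5.53) CPM at week 4. Both later weeks lay above week 0 without overlap, and IFIT2 was 4.80-fold higher at week 1 (log2 2.26 ± 0.12, edgeR adjusted p = 1.78e-13) and 3.73-fold higher at week 4 (1.90 ± 0.12, adjusted p = 4.18e-12). Week 4 was lower than week 1 (log2 -0.36 ± 0.10, edgeR adjusted p = 0.00776), with overlapping libraries. In GENCODE v29, other genes share 10.3% of the exonic bases of IFIT2 (8.68% on the same strand).

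IFIT1, which binds RNA with an incompletely methylated cap, had 6.11, 4.25, 5.80, 2.92 and 3.36 CPM at week 0, 2.13 to 4.88 (median 2.61) CPM at week 1 and 2.23 to 4.37 (median 3.48) CPM at week 4. Week 0 replicates 1 and 4 were the highest, and the groups overlapped. The call of a lower level at week 1 (log2 -0.57 ± 0.22, edgeR adjusted p = 0.0257) was lost without week 0 replicate 1 or 4 or week 1 replicate 2, 4 or 6 (adjusted p = 0.052 to 0.090) and under upper-quartile scaling, and the log2 change was -0.21 without both week 0 replicates 1 and 4. The lower level at week 4 was not called (log2 -0.40, adjusted p = 0.103) but passed without week 0 replicate 5 (adjusted p = 0.035). IFIT5 had 21.1, 19.5, 25.9, 19.3 and 21.2 CPM at week 0, 16.8 to 19.2 (median 18.5) CPM at week 1 and 16.4 to 17.7 (median 16.9) CPM at week 4. Both later weeks lay below all week 0 libraries, by log2 changes of -0.23 ± 0.07 (edgeR adjusted p = 0.00418) and -0.33 ± 0.07 (adjusted p = 0.000118).

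IFIT3, a partner of IFIT1, averaged 7.90 ± 0.910 CPM at week 1 (SD, n = 6) and 6.39 ± 1.24 CPM at week 0 (n = 5), with overlapping libraries. It was called higher at week 1 only narrowly (log2 0.31 ± 0.11, edgeR adjusted p = 0.0176), and the call was lost without any 1 of week 0 replicates 3, 5 and 6 (adjusted p = 0.050 to 0.059) and in the smaller files alone. The week 4 comparison missed the threshold (0.24 ± 0.11, adjusted p = 0.0571) and passed in 9 of 29 alternative fits. It passed without week 0 replicate 1 or 4 or week 4 replicate 6 (adjusted p = 0.023, 0.0091 and 0.039), without both these week 0 replicates, under RLE and upper-quartile scaling, in DESeq2 and limma, and with the stricter filter.

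The OAS genes encode synthetases of the oligoadenylate messenger that activates RNase L, and their members moved in opposite directions: OAS3 was the abundant one and fell, while OAS1 and OAS2 were scarce and rose. OAS3 had 18.5, 22.5, 19.2, 24.1 and 24.0 CPM at week 0, 4.76 to 8.39 (median 5.51) CPM at week 1 and 8.71 to 14.8 (median 10.0) CPM at week 4. The 3 groups did not overlap. OAS3 was 3.65-fold lower at week 1 than at week 0 (log2 -1.87 ± 0.14, edgeR adjusted p = 8.45e-11) and 2.08-fold lower at week 4 (-1.06 ± 0.14, adjusted p = 5.73e-07), and 1.75-fold higher at week 4 than at week 1 (adjusted p = 5.32e-05).

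OAS1 had 4 counts (0.0419 CPM) in week 0 replicate 1 and 0 counts in the other 4 week 0 libraries, 2 to 29 counts (0.0250 to 0.318, median 0.108 CPM) at week 1 and 6 to 41 counts (0.0675 to 0.461, median 0.253 CPM) at week 4. Weeks 1 and 0 overlapped through the 1 week 0 library that had counts. The fitted log2 changes were 3.75 ± 0.93 (edgeR adjusted p = 0.00122) and 4.75 ± 0.89 (adjusted p = 6.65e-05), and their size depends on that library. Without it the remaining week 0 libraries are all at 0, and the fitted changes of 6.55 and 7.55 then depend on the prior count that edgeR adds.

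OAS2 had 12 counts in week 0 replicate 1, 2 in replicate 3 and 0 in the others (0.126, 0.0213, 0, 0 and 0 CPM), 0.131 to 0.735 (median 0.222) CPM at week 1 and 0.0219 to 0.369 (median 0.156) CPM at week 4. Week 1 lay above week 0 in CPM, though its lowest library, replicate 1, had 12 counts, as many as week 0 replicate 1. Week 4 overlapped week 0. The log2 changes were 3.26 ± 0.87 (edgeR adjusted p = 0.00236) and 2.50 ± 0.89 (adjusted p = 0.0173), and without week 0 replicate 1 they were 5.47 and 4.71. In the 13 libraries of the smaller deposited files alone, the week 4 change was 1.75 and was not called. OASL, which lacks the synthetase activity, had 0 to 14 counts a library, with 0.0210, 0.0639, 0, 0.125 and 0.0816 CPM at week 0, and was not tested.

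Of the MX genes, dynamin-like GTPases that trap viral nucleoproteins or capsids, both rose at week 4. MX2 had 0.807, 0.884, 1.16, 1.26 and 1.10 CPM at week 0, 0.851 to 1.74 (median 1.13) CPM at week 1 and 1.56 to 3.16 (median 2.48) CPM at week 4. Week 4 lay above week 0 without overlap (2.39-fold, log2 1.26 ± 0.21, edgeR adjusted p = 1.34e-05), and it was 2.01-fold above week 1 with overlapping libraries (adjusted p = 0.000227). MX1 had 0.786, 0.863, 1.18, 1.15 and 0.612 CPM at week 0, 0.613 to 2.50 (median 1.42) CPM at week 1 and 0.933 to 2.45 (median 1.77) CPM at week 4. Its groups overlapped, with a call at week 4 (log2 0.90 ± 0.32, edgeR adjusted p = 0.0166) but not at week 1 (0.62 ± 0.32, adjusted p = 0.0943), which passed without week 1 replicate 1 or 4 (adjusted p = 0.031 for each) and in the smaller files alone. The week 4 call was lost with a term for file class (log2 0.68).

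All 3 IFITM genes, which encode membrane proteins that hinder the fusion of viruses with endosomes, and BST2, the tetherin that holds budding virions on the cell, rose at week 4. IFITM1 had 12.6, 13.4, 13.8, 12.1 and 12.3 CPM at week 0, 10.5 to 11.4 (median 10.9) CPM at week 1 and 24.6 to 28.4 (median 25.9) CPM at week 4. No 2 groups overlapped. IFITM1 was slightly lower at week 1 than at week 0 (log2 -0.23 ± 0.06, edgeR adjusted p = 0.00114), 2.05-fold higher at week 4 (1.04 ± 0.06, adjusted p = 3.44e-13) and 2.41-fold higher at week 4 than at week 1 (adjusted p = 1.06e-13).

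IFITM3 had 257, 261, 274, 257 and 241 CPM at week 0, 299.9 to 334 (median 306) CPM at week 1 and 362 to 444 (median 397) CPM at week 4. These groups stood apart as well, with 1.20-fold (edgeR adjusted p = 0.000124) and 1.57-fold (adjusted p = 2.39e-10) higher levels at weeks 1 and 4 than at week 0. IFITM2 went as IFITM1 did, with 128 ± 6.50 at week 0 (SD, n = 5), 107 ± 3.27 at week 1 (n = 6) and 150 ± 11.6 CPM at week 4 (n = 6). Its log2 changes against week 0 were -0.25 ± 0.05 (edgeR adjusted p = 0.000160) and 0.23 ± 0.05 (adjusted p = 0.000362), the second with overlapping libraries. IFITM1 and IFITM2 share 32.5% and 22.7% of their annotated exonic bases with each other and are near-identical in sequence in part. How reads were divided between them is thus uncertain. The same may hold for IFITM3, as the handling of reads with several matches is not given. Another annotated gene on the opposite strand shares 21.3% of the exonic bases of IFITM3.

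BST2 had 0, 0.149, 0.312, 0.221 and 0.235 CPM at week 0, 0.241 to 0.592 (median 0.339) CPM at week 1 and 0.466 to 1.01 (median 0.766) CPM at week 4. Week 4 lay above week 0 without overlap (3.96-fold, log2 1.99 ± 0.45, edgeR adjusted p = 0.000474). The week 1 call (1.08 ± 0.45, adjusted p = 0.0393) had overlapping libraries and was lost without week 0 replicate 3 or week 1 replicate 3 or 5 (adjusted p = 0.074 to 0.093), with the replicate block and with only the groups compared. Week 4 against week 1 was not called (log2 0.90, adjusted p = 0.0745) but passed without week 0 replicate 1 (adjusted p = 0.0098).

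ISG15, the gene USP18 of its protease and the ligase genes HERC5 and HERC6 differed in their calls. ISG15, a ubiquitin-like protein that is joined to other proteins, had 14.0, 13.1, 12.7, 12.6 and 11.3 CPM at week 0, 15.2 to 16.0 (median 15.6) CPM at week 1 and 7.34 to 10.3 (median 8.83) CPM at week 4. No 2 groups overlapped: week 1 was above and week 4 below week 0. The changes were 1.22-fold up at week 1 (log2 0.29 ± 0.08, edgeR adjusted p = 0.00165), 1.43-fold down at week 4 (-0.52 ± 0.08, adjusted p = 2.93e-06) and 1.75-fold down between week 4 and week 1 (adjusted p = 1.10e-08). ISG15 was the only tested member called higher at week 1 and lower at week 4.

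USP18, the protease that removes ISG15 and also restrains signalling at IFNAR2, had 13.7, 11.3, 13.6, 12.6 and 11.6 CPM at week 0, 3.30 to 4.32 (median 3.85) CPM at week 1 and 6.77 to 9.09 (median 8.68) CPM at week 4. Its 3 groups did not overlap either. USP18 was 3.24-fold lower at week 1 (log2 -1.70 ± 0.09, edgeR adjusted p = 1.33e-13) and 1.51-fold lower at week 4 (-0.59 ± 0.09, adjusted p = 2.74e-06) than at week 0, and 2.15-fold higher at week 4 than at week 1 (adjusted p = 1.42e-09). OAS3 and PARP9 had the same order of calls, lowest at week 1 and between at week 4.

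HERC6, which in the mouse is the main ligase for ISG15, had 1.09, 0.831, 1.02, 0.959 and 1.15 CPM at week 0, 0.791 to 2.37 (median 1.45) CPM at week 1 and 1.68 to 3.83 (median 1.75) CPM at week 4. Week 4 lay above week 0 (2.06-fold, log2 1.04 ± 0.26, edgeR adjusted p = 0.00112), while week 1 overlapped it and missed the threshold (0.58 ± 0.26, adjusted p = 0.0523). Week 1 passed in 12 of 28 alternative fits, among them RLE and upper-quartile scaling, DESeq2, the replicate block and the fits without week 0 replicate 6, week 1 replicate 2, 4 or 6 or week 4 replicate 1 (adjusted p = 0.015 to 0.050). Week 4 against week 1 passed without week 1 replicate 5 alone (adjusted p = 0.037). HERC5, the human ligase for ISG15, had 0 to 44 counts a library and no comparison passed (edgeR adjusted p = 0.525, 0.840 and 0.446).

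**Figure D2:**
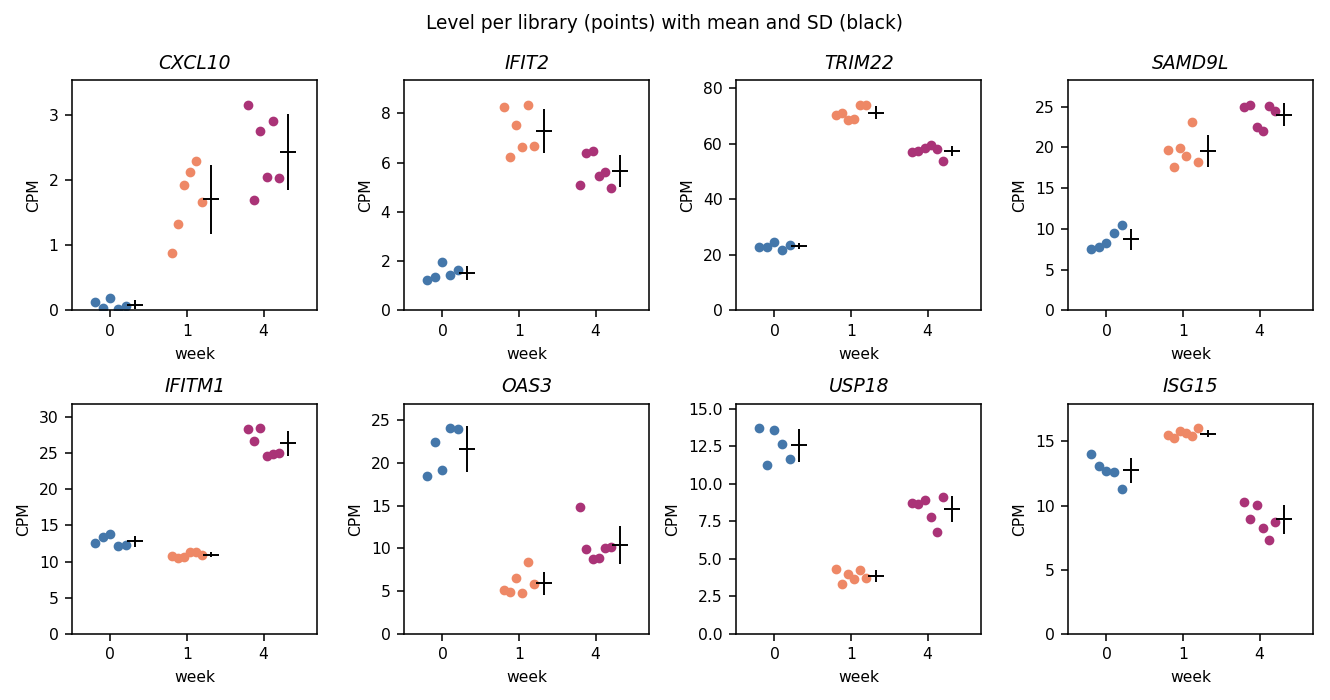
Level in CPM of 8 members in each library (points) at weeks 0, 1 and 4, with the mean and SD of the group (black cross and bar). OAS3 and USP18 are lowest at week 1 and between at week 4, ISG15 is highest at week 1 and lowest at week 4, and CXCL10, IFIT2, TRIM22 and SAMD9L lie above week 0 in every library of weeks 1 and 4.

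PARP9, which works with the ubiquitin ligase DTX3L, and PARP14, both of the ADP-ribosyltransferase family, differed in direction. PARP9 had 15.1, 15.7, 18.1, 15.9 and 14.9 CPM at week 0, 8.57 to 10.9 (median 10.2) CPM at week 1 and 11.1 to 14.2 (median 12.8) CPM at week 4. Its groups did not overlap, and it was 1.60-fold lower at week 1 (log2 -0.68 ± 0.08, edgeR adjusted p = 7.66e-08) and 1.24-fold lower at week 4 (-0.31 ± 0.08, adjusted p = 0.00115) than at week 0. PARP14 averaged 38.2 ± 1.64 CPM at week 4 (SD, n = 6) and 25.6 ± 2.79 CPM at week 0 (n = 5), a rise of 1.49-fold (adjusted p = 1.43e-06), and its week 1 level of 28.5 ± 3.55 CPM did not pass against week 0 (adjusted p = 0.0945). It passed in 4 of 29 alternative fits, without week 0 replicate 6 or week 1 replicate 4 (adjusted p = 0.043 and 0.018), under upper-quartile scaling and in the smaller files alone.

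SAMD9 and SAMD9L, neighbouring genes whose products restrict poxviruses and slow cell growth, rose at both weeks. SAMD9L had 7.52, 7.75, 8.32, 9.53 and 10.5 CPM at week 0, 17.5 to 23.2 (median 19.3) CPM at week 1 and 22.0 to 25.2 (median 24.7) CPM at week 4. Both weeks lay above week 0 without overlap, 2.24-fold (log2 1.17 ± 0.09, edgeR adjusted p = 4.59e-11) and 2.75-fold (1.46 ± 0.09, adjusted p = 1.13e-12). SAMD9 had 13.6, 17.3, 16.3, 17.04 and 18.9 CPM at week 0, 20.0 to 25.7 (median 21.3) CPM at week 1 and 24.5 to 33.0 (median 26.0) CPM at week 4. It too lay above week 0 in every library, 1.31-fold (edgeR adjusted p = 0.000414) and 1.62-fold (adjusted p = 3.02e-07).

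Of the IFI genes, IFI35 and IFI44 were lower at week 1 and overlapped week 0 again at week 4. IFI35, a partner of the interferon-induced protein NMI, had 8.04, 7.63, 7.85, 7.62 and 7.66 CPM at week 0, 3.90 to 5.69 (median 4.36) CPM at week 1 and 6.15 to 8.85 (median 7.84) CPM at week 4. Week 1 lay below both other groups, 1.68-fold lower than week 0 (log2 -0.75 ± 0.10, edgeR adjusted p = 1.55e-06), and week 4 was 1.64-fold above week 1 (adjusted p = 6.45e-06). Week 4 against week 0 did not pass (-0.03 ± 0.10, adjusted p = 0.784).

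IFI44 had 2.81, 1.37, 2.26, 1.51 and 1.36 CPM at week 0, 0.576 to 1.29 (median 0.995) CPM at week 1 and 1.32 to 2.49 (median 1.93) CPM at week 4. Week 1 lay below both other weeks, by a log2 change of -0.92 ± 0.22 against week 0 (edgeR adjusted p = 0.000812). IFI6, a protein of the endoplasmic reticulum that hinders flavivirus replication, had 4.14, 3.65, 4.51, 3.11 and 2.55 CPM at week 0, 4.78 to 6.26 (median 5.47) CPM at week 1 and 4.12 to 5.22 (median 4.53) CPM at week 4. It was 1.55-fold higher at week 1 without overlap (adjusted p = 8.20e-05) and 1.29-fold higher at week 4 with overlap (adjusted p = 0.0109), a call that was lost in the libraries of the smaller files alone (log2 0.16). Its lower level at week 4 than at week 1 was not called (log2 -0.27, edgeR adjusted p = 0.0653) but passed in 8 of 29 alternative fits, among them those without week 0 replicate 4 or 6, week 1 replicate 1 or week 4 replicate 1 (adjusted p = 0.031 to 0.049). IFI44L, with 4 to 72 counts a library, passed no comparison (edgeR adjusted p = 0.289, 0.525 and 0.111), though week 4 against week 1 passed without week 1 replicate 5 (adjusted p = 0.043), and IFI27 had at most 1 count in any library and was not tested.

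Among the other effectors, TRIM22 had the change with the smallest standard error and XAF1 rose late. TRIM22, a ubiquitin ligase that restrains transcription of HIV, had 22.9, 22.8, 24.5, 21.7 and 23.4 CPM at week 0, 68.6 to 74.0 (median 70.8) CPM at week 1 and 53.8 to 59.5 (median 57.7) CPM at week 4. No 2 groups overlapped: TRIM22 was 3.09-fold higher at week 1 (log2 1.63 ± 0.04, edgeR adjusted p = 1.73e-18), 2.49-fold higher at week 4 (1.32 ± 0.04, adjusted p = 6.30e-17) and lower at week 4 than at week 1 (-0.31 ± 0.04, adjusted p = 2.53e-06). TRIM22 shares 10.7% of its exonic bases with OR56B1 on the same strand.

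XAF1, an antagonist of the apoptosis inhibitor XIAP, had 0.587, 0.351, 0.613, 0.441 and 0.408 CPM at week 0, 0.526 to 0.909 (median 0.735) CPM at week 1 and 1.19 to 2.47 (median 1.69) CPM at week 4. Week 4 lay above both other weeks, 3.51-fold above week 0 (log2 1.81 ± 0.22, edgeR adjusted p = 1.80e-07) and 2.30-fold above week 1 (adjusted p = 4.47e-05). The week 1 call (0.61 ± 0.22, adjusted p = 0.0194) had overlapping libraries and was lost without week 0 replicate 3 (adjusted p = 0.056), in limma and in the smaller files alone. PRAL on the opposite strand covers 38.3% of the exonic bases of XAF1.

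ISG20, an exonuclease that degrades single-stranded RNA, had 1.31, 1.09, 1.39, 0.729 and 1.18 CPM at week 0, 0.351 to 1.07 (median 0.561) CPM at week 1 and 0.822 to 1.37 (median 0.968) CPM at week 4. Its groups overlapped, and it was lower at week 1 than at week 0 (log2 -0.86 ± 0.24, edgeR adjusted p = 0.00283) and higher at week 4 than at week 1 (0.72 ± 0.23, adjusted p = 0.0149), the second not in the smaller files alone. EPSTI1 averaged 1.98 ± 0.414 CPM at week 1 (SD, n = 6) and 2.71 ± 0.601 CPM at week 0 (n = 5). That call (edgeR adjusted p = 0.0219) was lost without week 0 replicate 4 or week 1 replicate 2 or 4 (adjusted p = 0.055 to 0.097), without both week 0 replicates 1 and 4 and under upper-quartile scaling. RSAD2 (viperin), which makes a nucleotide that stops viral RNA chains, was not tested: it had 0, 2, 0, 1 and 0 counts at week 0, 0 to 21 counts at week 1 and 0 to 37 counts at week 4.

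The chemokine genes CXCL10 and CXCL11, whose products draw T cells through the receptor CXCR3, had fitted rises above 10-fold at both weeks. In untreated cells their levels were near 0. CXCL10 had 0.126, 0.0426, 0.185, 0.0192 and 0.0612 CPM (2 to 16 counts) at week 0, 0.886 to 2.29 (median 1.79) CPM at week 1 and 1.69 to 3.15 (median 2.39) CPM at week 4. Every later library lay above all of week 0, while weeks 1 and 4 overlapped. CXCL10 was 19.8-fold higher at week 1 (log2 4.31 ± 0.36, edgeR adjusted p = 3.84e-10) and 28.2-fold higher at week 4 (4.82 ± 0.36, adjusted p = 5.90e-11).

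CXCL11 had 2, 0, 0, 4 and 0 counts at week 0 (0.0210, 0, 0, 0.0384 and 0 CPM), 0.0875 to 0.329 (median 0.153) CPM at week 1 and 0.0562 to 0.290 (median 0.144) CPM at week 4. Both weeks lay above week 0 without overlap, at log2 changes of 3.67 ± 0.71 (edgeR adjusted p = 9.78e-05) and 3.58 ± 0.71 (adjusted p = 0.000132), which were 4.71 and 4.62 without week 0 replicate 5. Over all alternative fits they were 3.38 to 4.71 and 3.29 to 4.62, and they rest on 6 counts in the week 0 libraries together. Between week 4 and week 1 neither chemokine gene passed (adjusted p = 0.0984 for CXCL10 and 0.907 for CXCL11), though CXCL10 passed in limma, with only the groups compared and without week 0 replicates 1 and 4.

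**Figure D3:**
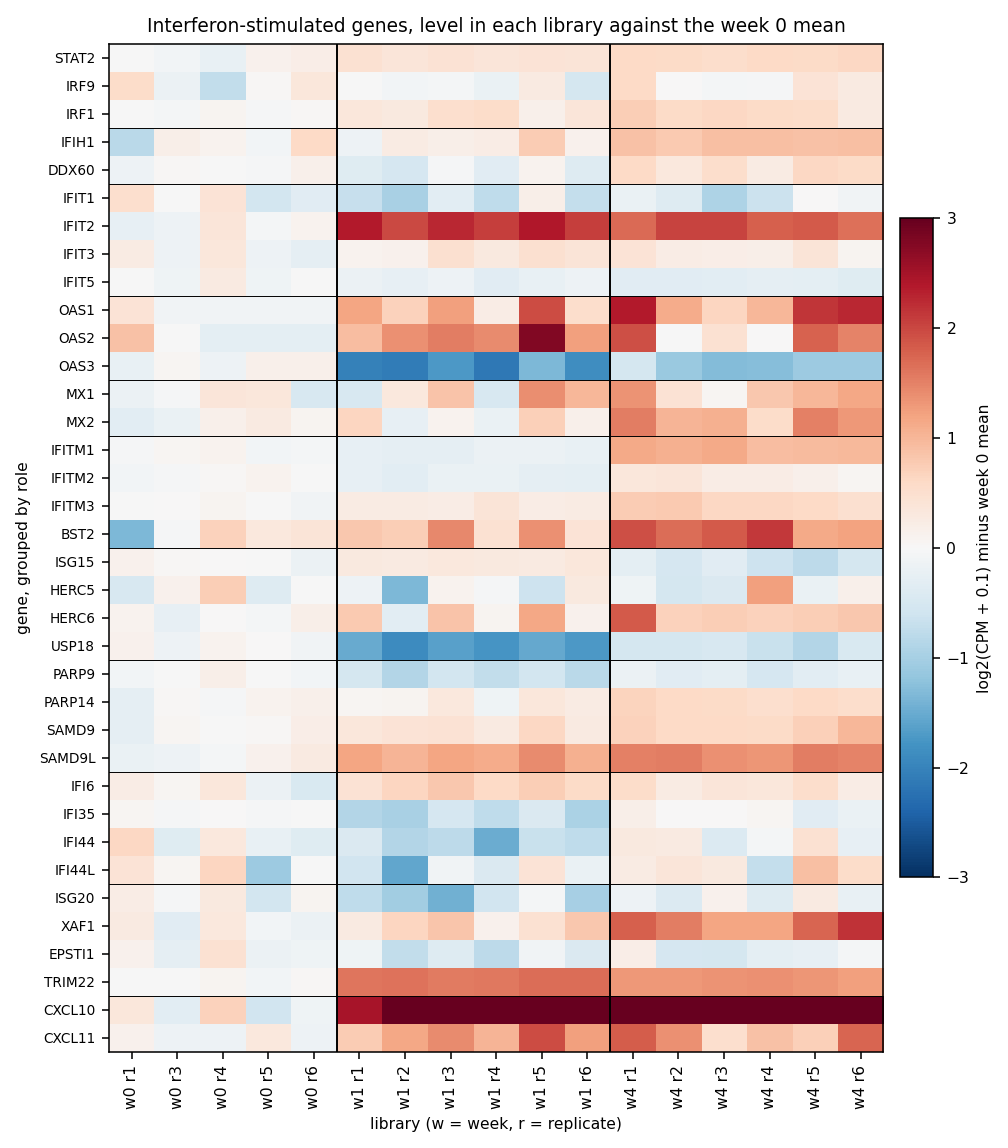
Level of each tested member in each library as log2(CPM + 0.1) minus the mean of the 5 week 0 libraries (colour, from blue below to red above), with genes in rows by role and libraries in columns by week and replicate. Colours stop at 3 on either side, which CXCL10 passes in most libraries of weeks 1 and 4, and OAS3 and USP18 are blue in every library of week 1.

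The order of calls over the 3 comparisons sorts the 36 tested members, and that of a member with a call near the threshold changes with the alternative fits given above. STAT2, IRF1, IFITM3, SAMD9, SAMD9L and XAF1 were called higher at week 1 and higher again at week 4. OAS1, OAS2, BST2, IFI6, CXCL10 and CXCL11 were called higher at both weeks with no call between them, and IFIT2 and TRIM22 were higher at both and lower at week 4 than at week 1. DDX60, IFITM1 and IFITM2 were called lower at week 1 and higher at week 4. OAS3, USP18 and PARP9 were lower at both weeks and higher at week 4 than at week 1, and IFIT5 was lower at both with no call between them. IFI35, IFI44 and ISG20 were lower at week 1 only and higher at week 4 than at week 1. IFIH1, MX2 and PARP14 had their first call at week 4, also against week 1, and MX1 and HERC6 had it against week 0 alone. IFIT1 and EPSTI1 were lower at week 1 alone and IFIT3 higher at week 1 alone, each without a call at week 4. IRF9, HERC5 and IFI44L had no call.

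Per length of gene, the levels spanned several orders of magnitude and were led by IFITM3 and IFITM2 in every week. At week 4 the level was 142 CPM per kb of gene length for IFITM3, 93.6 for IFITM2, 15.8 for IFITM1, 12.6 for STAT2 and 10.3 for ISG15. The next were IFI6 at 4.93, TRIM22 at 4.57, SAMD9 at 3.93, IFIT5 at 3.90, IFI35 at 3.87, PARP14 at 3.72, SAMD9L at 3.01 and CXCL10 at 2.06 CPM per kb, against 0.0739 for CXCL10 at week 0. The gene lengths come from the deposited tables, and how they were built is not given in the sources used here. IFITM2 and IFITM3 together made 50.1% to 58.9% of the summed CPM of the 40 genes. That sum was 677 to 713 CPM at week 0, 765 to 813 CPM at week 1 and 924 to 1053 CPM at week 4, and without these 2 genes it was 298 to 323, 358 to 406 and 415 to 456 CPM. At weeks 0, 1 and 4, 13, 13 and 10 of the 40 genes averaged under 1 CPM. At week 0 these ran from IFI27, with 0 to 1 count a library, to MX1, with 60 to 120. A few counts thus set the values of the lowest of them only.

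**Figure D4:**
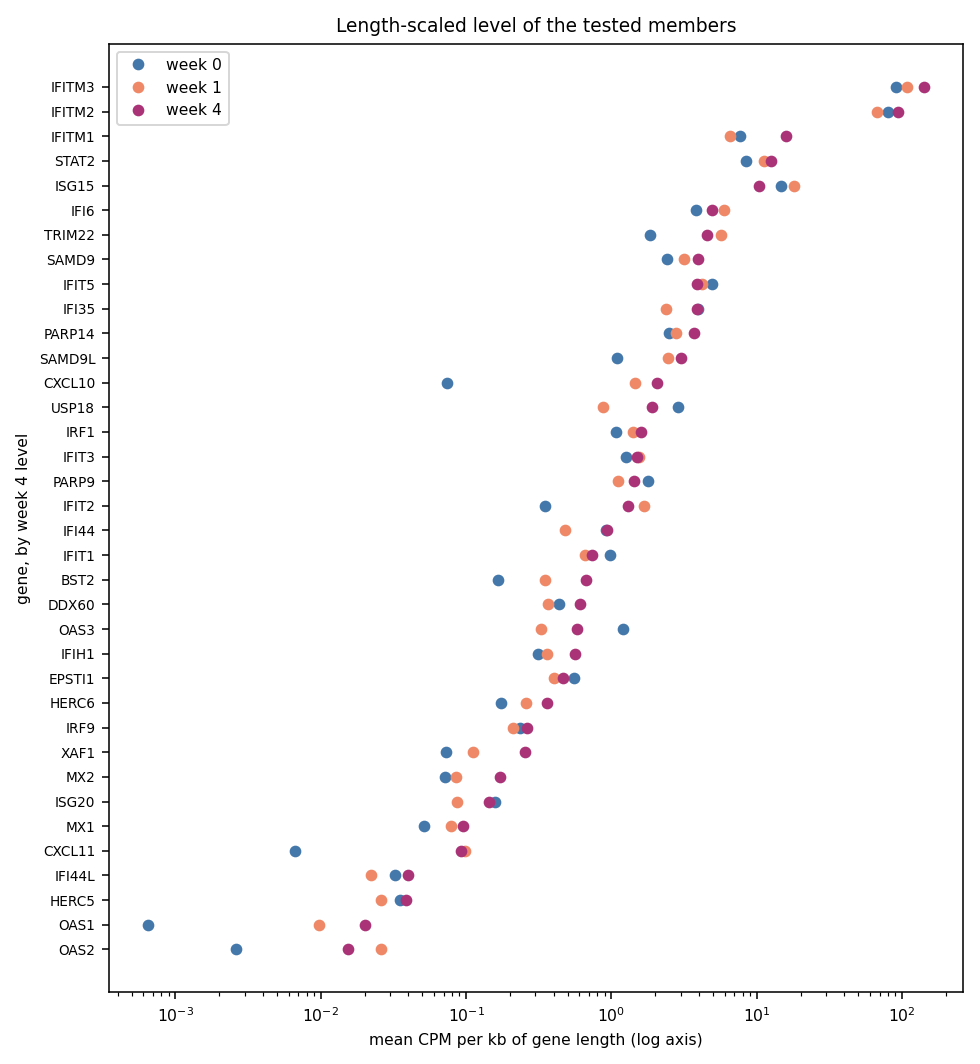
Mean level of the 36 tested members in CPM per kb of gene length (horizontal log axis) at weeks 0, 1 and 4, with genes ordered down the vertical axis by their week 4 level. IFITM3 and IFITM2 lead in every week, and CXCL10 stands at 0.0739, 1.45 and 2.06 CPM per kb at weeks 0, 1 and 4.

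Interferon genes themselves were hardly detected. Of 21 listed, 13 had no count in any library, IFNB1 (interferon beta) had 4 counts and IFNA1 had 41 counts over all 17 libraries, and the others not tested had at most 21 each. The genes for interferon alpha are near-identical copies, and how reads shared among them were counted is not given in the sources used here. Only IFNE (interferon epsilon) could be tested, at 0.472 ± 0.105 at week 0 (SD, n = 5), 0.889 ± 0.169 at week 1 (n = 6) and 0.907 ± 0.455 CPM at week 4 (n = 6). It was called higher at both weeks (log2 0.92, edgeR adjusted p = 0.00642, and 0.94, adjusted p = 0.00507), with overlapping libraries at week 4.

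Of 10 genes of interferon receptors and their kinases, 9 were tested. Against week 0, 3 were called higher and 1 lower at week 1, and 5 higher and 0 lower at week 4. Of all tested genes, 32.9% were called higher and 34% lower at week 1, and 33.9% and 33.7% at week 4. These shares also stand beside the counts of the lists below. IFNAR1 averaged 53.6 ± 2.94 at week 0, 79.4 ± 3.59 at week 1 and 79.1 ± 6.06 CPM at week 4, and was 1.48-fold higher at both weeks (edgeR adjusted p = 4.02e-09 and 5.22e-09). IFNGR2, a chain of the receptor for interferon gamma, rose 1.88-fold and 1.83-fold, and JAK1 rose 1.20-fold and 1.22-fold. TYK2 was called higher at week 4 alone (log2 0.17, adjusted p = 0.00631). IFNAR2 did not pass (adjusted p = 0.602 and 0.0594) and shares 83.2% of its exonic bases with other genes.

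Of 16 sensors, adaptors and kinases upstream of interferon, 12 were tested, with 3 higher and 3 lower at week 1 and 5 higher and 3 lower at week 4. CGAS, the sensor of cytoplasmic DNA, averaged 7.38 ± 0.892 at week 0, 2.50 ± 0.195 at week 1 and 2.54 ± 0.393 CPM at week 4. It fell 2.95-fold and 2.90-fold (edgeR adjusted p = 1.20e-11 and 1.68e-11), with no overlap between the libraries. STING1, the adaptor of cGAS, was named after its values were seen, and was lower by log2 changes of -0.45 ± 0.05 and -0.40 ± 0.05 (adjusted p = 1.72e-07 and 1.03e-06). IFI16, a sensor of nuclear DNA, was higher by 1.17-fold and 1.41-fold, IKBKE, a kinase that activates IRF factors, by 1.34-fold and 1.51-fold, and TICAM1, the adaptor of the RNA receptor TLR3, by 1.76-fold and 1.40-fold.

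Of 12 genes that brake interferon signalling, 11 were tested, with 3 higher and 5 lower at week 1 and 2 higher and 5 lower at week 4. SOCS3, an inhibitor of JAK kinases, averaged 47.3 ± 3.55 at week 0, 17.9 ± 1.34 at week 1 and 23.4 ± 1.29 CPM at week 4, and fell 2.64-fold and 2.02-fold (edgeR adjusted p = 5.67e-15 and 1.84e-12). CISH, of the same family, fell 2.74-fold and 1.65-fold. OTUD5, a deubiquitinase that acts on the signalling protein TRAF3, rose 1.58-fold and 1.48-fold, and the phosphatase gene PTPN11 rose 1.37-fold and 1.27-fold.

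A list of 47 other interferon-response genes had 39 tested, of which 17 were called higher and 13 lower at week 1 and 21 higher and 9 lower at week 4, with median log2 changes of 0.06 and 0.19. NCOA7, whose short form hinders entry of viruses through endosomes, averaged 21.6 ± 1.28 at week 0, 41.3 ± 1.80 at week 1 and 64.4 ± 3.95 CPM at week 4, and rose 1.91-fold and 2.98-fold (edgeR adjusted p = 5.93e-13 and 8.76e-17). LGALS3BP, a secreted glycoprotein, rose 2.60-fold and 2.95-fold, and APOL1, a lipoprotein component that lyses trypanosomes, rose 3.82-fold and 3.76-fold. PNPT1, a mitochondrial exoribonuclease, fell 1.93-fold and 2.12-fold. Between week 4 and week 1, the genes called higher and lower numbered 1 and 0 among the receptors and kinases. They numbered 4 and 1 among the sensors, 2 and 1 among the brakes and 15 and 6 in this last list. In that comparison, 21.8% of all tested genes were called higher and 18.6% lower. PSMB8, PSMB9, TAP1, TRIM26 and TREX1 were listed at 0 in all 17 libraries, and are among the genes without a test. Whether they were silent or their reads went uncounted was not tested. The annotation and the treatment of reads shared between genes are unknown, so these values do not show absence of the RNA.

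Single libraries carried many of the highest member levels. Week 1 replicate 5 had the highest level of its week for 20 of the 36 tested members (55.6%), against 18.0% of all tested genes, and week 1 replicate 2 had the lowest for 14 (38.9%, against 15.2%). Week 4 replicate 1 was the highest of its week for 17 members (47.2%, against 16.9%), and week 0 replicate 4 for 17 (47.2%, against 21.7%). These members are not independent of each other, and the part of these libraries in the members' calls was tested only by leaving libraries out, singly or together.

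**Figure D5:**
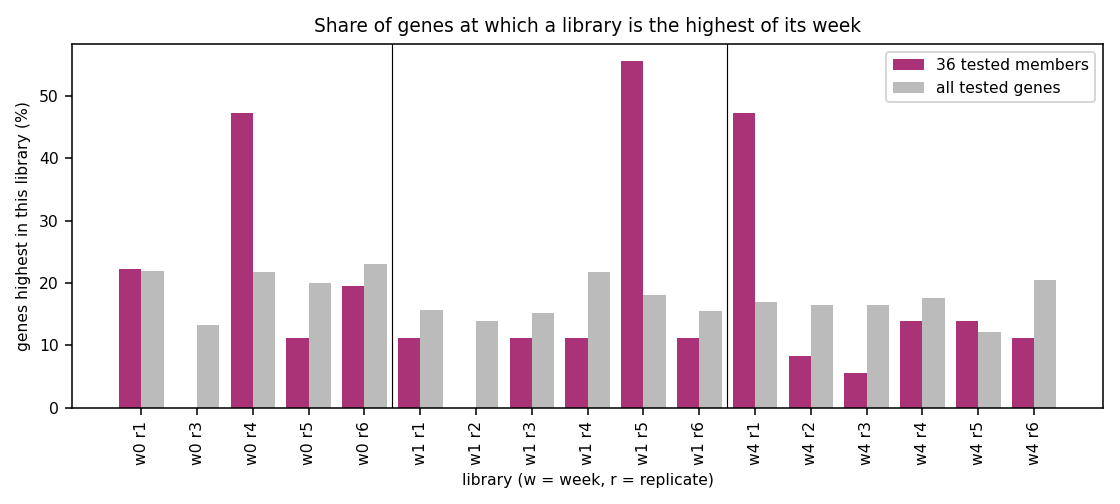
Percent of the 36 tested members (purple) and of all tested genes (grey) for which each library (horizontal axis, by week and replicate) was the highest of its week. Week 1 replicate 5 stands at 55.6%, and week 4 replicate 1 and week 0 replicate 4 at 47.2% each, while week 0 replicate 3 and week 1 replicate 2 stand at 0 for the members.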

How the data were processed

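RNA was purified on silica columns with DNase treatment and made into libraries with an Illumina kit, per the labels' protocols. The authors deposited raw counts per gene symbol for each of 17 libraries, not normalized. HISAT2 2.0.5.2, featureCounts 1.4.6 and the build mm10 are named, per the submitters' processing notes. That build is of the mouse while the deposited symbols are human, so the genome behind the counts is unclear. Not given in the sources used here are the annotation, the strand setting and the handling of reads with several matches, and overlapping or near-identical genes may share reads. The larger of the deposited files (4 libraries) also hold gene lengths. Gene overlaps are from GENCODE v29, whose exon length equals the deposited length for 19094 of 36465 shared names. In the deposited tables, 62.4% to 67.8% of the genes with 1 to 20 counts had an even count.

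An entry without a name (0.221% to 0.289% of the counts) was left out. Counts were tested in edgeR 4.0.16 (R 4.3.3) with filterByExpr, TMM (factors 0.938 to 1.11) and a quasi-likelihood fit of a mean per group over all 17 libraries, with Benjamini-Hochberg adjustment over 16891 genes. The biological coefficient of variation was 11.7%. Standard errors of the log2 changes were obtained as the absolute change divided by the square root of the quasi-likelihood F statistic. For members near 0 counts they depend, like the change, on the prior count that edgeR adds. Leaving TMM out moved the median of all tested genes to -0.12, -0.14 and -0.01 on the log2 scale (week 1 against 0, 4 against 0 and 4 against 1), and the changes printed are those with TMM. No pair of libraries in a group agreed within sampling noise (chi-square per gene at least 7.38 over 40 pairs). Alternatives used RLE or upper-quartile scaling, DESeq2 1.42.0, limma 3.58.1 (voom), other filters on low counts, a minimum fold change, a term for file class, fits of the compared groups alone, a replicate block and libraries left out. The fit on the smaller files alone was chosen after seeing the data.

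The members, the lists and the tests were chosen with earlier results of these data known. Every member is accounted for. Values by library are given for up to 3 tested members of each role with the largest change against week 0, and for STAT2, IRF9, IRF1, IRF7, ISG15 and CXCL10. From each pathway list, up to 4 genes with the smallest adjusted p at week 4 against week 0 are named, and IFNB1, IFNAR1 and IFNAR2. A further gene of this rule is not reported here.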

Additional observations from a re-analysis of the deposited data

Results flagged for a closer look

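Of 108 sets of libraries (the 36 tested members in 3 weeks), 11 had a library far from the others of its week by Dixon's test at the 95% level, a rate of which chance gives about 1 in 20. At week 0, IFIT5 had 25.9 CPM in replicate 4 and 19.3 to 21.2 CPM in the others, OAS1 had 0.0419 CPM (4 counts) in replicate 1 and 0 in the others, and OAS2 had 0.126 CPM (12 counts) in replicate 1 and 0 to 0.0213 CPM in the others.

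At week 1, replicate 5 stood apart for IFIH1 (2.70 CPM, others 1.39 to 1.85 CPM) and for OAS2 (0.735 CPM, others 0.131 to 0.252 CPM), and replicate 4 for IFITM3 (334 CPM, others 299.9 to 308 CPM). Week 4 had 5 such values. Replicate 1 was high for OAS3 (14.8 CPM, others 8.71 to 10.1 CPM) and for HERC6 (3.83 CPM, others 1.68 to 1.83 CPM), replicate 4 for HERC5 (0.500 CPM, others 0.0767 to 0.183 CPM) and replicate 6 for SAMD9 (33.0 CPM, others 24.5 to 27.2 CPM). Replicate 2 was low for IFIH1 (2.75 CPM, others 2.91 to 2.99 CPM).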

How the results depend on the processing

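The counts of members called higher and lower (16 and 12 at week 1 against week 0, 22 and 5 at week 4 against week 0, 18 and 3 at week 4 against week 1) stayed within 1.5 times of these values in the alternatives run, with these exceptions. The stricter filter left 10 and 13 higher at weeks 1 and 4 against week 0, because fewer members were tested. A minimum 2-fold change (glmTreat) left 6 and 2 at week 1, 8 and 0 at week 4 and 1 and 0 between them. With only the groups compared in the fit, 5 were lower at week 4 against week 1. Leaving out each library in turn gave 13 to 19, 22 to 23 and 17 to 19 higher, 9 to 12, 5 to 6 and 3 to 4 lower, and median log2 changes of 0.20 to 0.29, 0.53 to 0.59 and 0.33 to 0.46. Labels share replicate numbers, but same-numbered libraries did not deviate together (correlations -0.082 to 0.144), and the replicate block gave 16 and 11, 22 and 5, and 18 and 3 calls. No called change reversed. Log2 changes that were not called and changed sign, for causes that were not tested, were IFIH1 at week 1 (-0.0017) and ISG20 at week 4 (0.043) without week 0 replicates 1 and 4, and IFI35 at week 4 with upper-quartile scaling (0.033). With a file class term, HERC5 (-0.17), IFI44 (-0.023) and IFI44L (-0.084) at week 4 against week 0 and IFIT1 (-0.031) at week 4 against week 1 changed sign, and in the smaller files alone so did HERC5 (-0.095), IFI44 (-0.19) and IFI44L (-0.046). Leaving out single libraries gave values of either sign for HERC5 (-0.46 to 0.51), IFI35 (-0.082 to 0.020) and IFI44 (-0.071 to 0.22) at week 4 against week 0, and for HERC5 (-0.016 to 0.80) and CXCL11 (-0.31 to 0.20) at week 4 against week 1. Depth limits the members under 1 CPM, of which OAS1, OAS2, CXCL11, HERC5 and BST2 rest on few counts a library.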

Other observations

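Among the 47 other interferon-response genes, several not described above are given here, chosen after their values were seen. GBP1, a guanylate-binding protein that interferon gamma induces strongly, averaged 59.8 ± 5.34 at week 0 (SD, n = 5), 29.7 ± 1.38 at week 1 (n = 6) and 36.8 ± 1.38 CPM at week 4 (n = 6), and was 2.01-fold and 1.62-fold lower than in untreated cells (edgeR adjusted p = 2.24e-13 and 1.49e-10). GBP2 of the same family was 1.36-fold lower at week 1 and 1.43-fold higher at week 4. PLSCR1, a phospholipid scramblase, fell 2.76-fold and 1.81-fold. The libraries of weeks 1 and 4 did not overlap those of week 0 for any of these 3 genes.

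SP100 and PML, constituents of PML nuclear bodies, rose together. SP100 averaged 56.0 ± 6.19 at week 0, 117 ± 1.79 at week 1 and 108 ± 6.22 CPM at week 4, which was 2.08-fold and 1.93-fold above untreated cells (edgeR adjusted p = 4.28e-13 and 3.08e-12). PML was 1.63-fold and 1.60-fold higher. The genes of the RNA-binding enzymes ADAR and EIF2AK2 (PKR) passed the test at neither week, with log2 changes of -0.04 ± 0.06 and 0.02 ± 0.06 for ADAR and of 0.06 ± 0.07 and 0.04 ± 0.07 for EIF2AK2.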
